A study of Mus musculus with 8 samples.

Results

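Transcripts of 10 Notch pathway genes were compared between control kidneys and kidneys in which Kdm1a, which encodes the lysine demethylase LSD1, was conditionally deleted. The genes are the receptors Notch1, Notch2 and Notch3, the ligands Jag1 and Dll1, the receptor-modifying enzyme Lfng, and the target genes Hes1, Hes5, Hey1 and Heyl. They were chosen by name for their part in nephron formation and matched by Ensembl gene ID, 10 of the 49315 genes listed in each library. All 10 had enough counts to be tested, among 18485 genes tested. The ligand Dll1 was the only one of the 10 that passed the test, at 52.2% of its control mean in the knockout kidneys. For the other 9, including all 3 receptors and all 4 target genes, no difference between the groups passed it.

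Notch receptors are single-pass membrane proteins that meet their ligands, of the Jagged and Delta-like families, on the surface of a neighbouring cell. Ligand binding lets ADAM proteases and then the gamma-secretase complex cut the receptor, and the freed intracellular domain joins the DNA-binding protein RBPJ and Mastermind coactivators at target genes such as those of the Hes and Hey families. In the developing kidney the pathway is known for its part in the differentiation of nephron progenitors and in the formation of proximal segments, where Notch2 is the receptor with the larger role and Jag1 and Dll1 are ligands of the early nephron. Notch3 and Heyl are known for their part in the smooth muscle and pericytes of blood vessels, and Dll4 and Hey2 for theirs in arteries, so a whole kidney holds several sources of these transcripts.

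The samples were 8 mouse kidneys, 4 labelled control (wild type in the labels' protocol) and 4 labelled conditional knockout. Messenger RNA was taken from frozen tissue and captured with oligo-dT beads. The age, sex and strain of the animals, the Cre line that deletes Kdm1a and the cells in which it acts are not given in the sources used here. The labels do not say that each library came from a separate animal, so the p values measure the spread between these libraries, which may be technical in part. Because RNA came from whole tissue, fewer cells of a type and less RNA per cell cannot be told apart.

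Total counts ran from 19524945 to 28544511 per library. Kdm1a, the targeted gene, fell from 112.8 ± 4.77 to 93.6 ± 1.88 counts per 1000000 counts of the library (CPM; SD, n = 4 per group), a change of -0.27 on the log2 scale (SE 0.05, adjusted p = 0.0194; exact two-sided permutation p = 0.0286, the smallest that 4 against 4 can give). This call was lost when control replicate 1 or 3 or knockout replicate 1, 2 or 4 was left out, at adjusted p values from 0.0529 to 0.0765. Those fits called 0.819% to 3.15% of all genes tested, against 14.9% with all 8 libraries. On the first principal component, which held 62.7% of the variance, the scores of control replicate 2 (9.56) and of knockout replicate 3 (9.71) were adjacent and fell between the other controls (-78.7 to -52.4) and the other knockouts (48.3 to 68.4). Transcripts of the adrenal cortex, a gland that touches the kidney, were most abundant in knockout replicate 1 (a sum of 2637.4 CPM), then in knockout replicate 4 (291.1) and control replicate 4 (139.8), against 11.3 to 16.2 CPM in the other 5 libraries. Xist, the RNA that coats the silenced X of female cells, read 964.5 (control replicate 2), 1085.5 (knockout replicate 1) and 1047.1 CPM (knockout replicate 4), and at most 6.14 CPM in the others. Ddx3y, on the Y chromosome, read 0.417, 0.38 and 1.08 CPM in these libraries and 75.5 to 111.7 CPM in the others. By these transcripts the groups were not balanced for sex.

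Promoter sequences are shown for the ligands that fell, Dll1 and Dll4, and for the members whose promoter window holds the core of the RBPJ binding site, Hes5 and Lfng. Each runs 5′ to 3′ along the gene's own strand over the 250 bases before a RefSeq transcription start, in build GRCm38.p6, and capitals mark TGGGAA or its reverse complement TTCCCA. The Dll1 window lies at chr17:15376933-15377182 on the minus strand and belongs to the more upstream of 2 starts. The Dll4 window lies at chr2:119325534-119325783, the Hes5 window at chr4:154960673-154960922 and the Lfng window at chr5:140607091-140607340, all 3 on the plus strand.
Dll1: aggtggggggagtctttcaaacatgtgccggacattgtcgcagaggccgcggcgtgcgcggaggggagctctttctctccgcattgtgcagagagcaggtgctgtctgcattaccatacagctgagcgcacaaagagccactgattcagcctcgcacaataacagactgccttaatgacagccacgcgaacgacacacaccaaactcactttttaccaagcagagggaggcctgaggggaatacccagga
Dll4: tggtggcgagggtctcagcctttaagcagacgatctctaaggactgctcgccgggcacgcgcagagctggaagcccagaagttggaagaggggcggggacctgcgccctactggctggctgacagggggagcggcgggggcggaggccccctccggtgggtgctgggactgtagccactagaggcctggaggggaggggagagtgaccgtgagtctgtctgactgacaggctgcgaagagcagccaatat
Hes5: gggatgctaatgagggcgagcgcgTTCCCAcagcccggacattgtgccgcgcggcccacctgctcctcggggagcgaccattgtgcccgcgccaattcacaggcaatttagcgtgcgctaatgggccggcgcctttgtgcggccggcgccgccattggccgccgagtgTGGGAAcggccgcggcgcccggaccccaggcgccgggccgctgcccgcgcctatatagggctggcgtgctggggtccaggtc
Lfng: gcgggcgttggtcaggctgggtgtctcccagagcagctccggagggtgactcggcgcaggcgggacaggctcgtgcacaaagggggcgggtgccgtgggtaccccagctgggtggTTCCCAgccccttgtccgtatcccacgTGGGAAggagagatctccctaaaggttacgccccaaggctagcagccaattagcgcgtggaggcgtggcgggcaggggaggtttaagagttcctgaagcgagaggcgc
In Hes5 the matches lie 226 and 82 bases before the start, on the minus and the plus strand, and in Lfng 135 and 108 bases before it, also on opposite strands. RefSeq promoters were found for 7 of the 10 genes, with 8 windows, and of these the Hes5 and Lfng windows alone held the motif. Of 32851 mouse promoter windows of this length, 21.6% held it on either strand. G and C made up 56% of the Dll1 window, 65.6% of the Dll4 window, 71.6% of the Hes5 window and 66% of the Lfng window. A match is a description of the letters and not of a bound site.

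Dll1, a Delta-like ligand that activates Notch receptors on adjacent cells, was lower in the knockout kidneys. It is annotated on chromosome 17, 15367354 to 15376872, minus strand (ENSMUSG00000014773; GRCm38 coordinates here and below, as deposited). Control replicates 1 to 4 read 22.2, 18.9, 31.1 and 28.9 CPM, and knockout replicates 1 to 4 read 18.2, 8.73, 13.7 and 12.2 CPM. All 4 knockouts lay under all 4 controls, but the margin was narrow: the highest knockout (replicate 1, 18.2 CPM) was just below the lowest control (replicate 2, 18.9 CPM). The mean fell from 25.3 ± 5.69 to 13.2 ± 3.93 CPM (SD, n = 4 per group), a drop of 47.8%. Its log2 fold change was -0.94 (SE 0.23, 95% confidence interval -1.46 to -0.41), and the adjusted p was 0.0324 in edgeR's quasi-likelihood test with Benjamini-Hochberg adjustment over all genes tested, where values under 0.05 count as called. The values rest on 174 to 771 counts per library. A long noncoding RNA on the opposite strand, A930024N18Rik, covers the start of Dll1 and the promoter window printed above, and had 13 to 32 counts per library.

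The Dll1 call depended on single libraries. It was lost, with the same direction, when control replicate 1 (adjusted p = 0.0711), control replicate 3 (0.0957), control replicate 4 (0.0858), knockout replicate 2 (0.0711) or knockout replicate 4 (0.0987) was left out, and when knockout replicates 1 and 4 were both left out (0.162). Calls were lost over all genes in the same fits. Those without a single library called 0.819% to 3.65% of all genes tested, and the last called 0.00522%, against 14.9% in the reported fit. The table of the whole series, counted among the alternatives, holds the same counts as the reported fit and so repeats it. Across 19 alternatives the log2 fold change of Dll1 stayed between -1.19 and -0.79, and 13 of them called it. With the adrenal cortex transcripts as a covariate it was -1.19 (adjusted p = 0.0375), and with Y-linked transcripts as a covariate -0.97 (adjusted p = 0.0496).

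**Figure D1:**
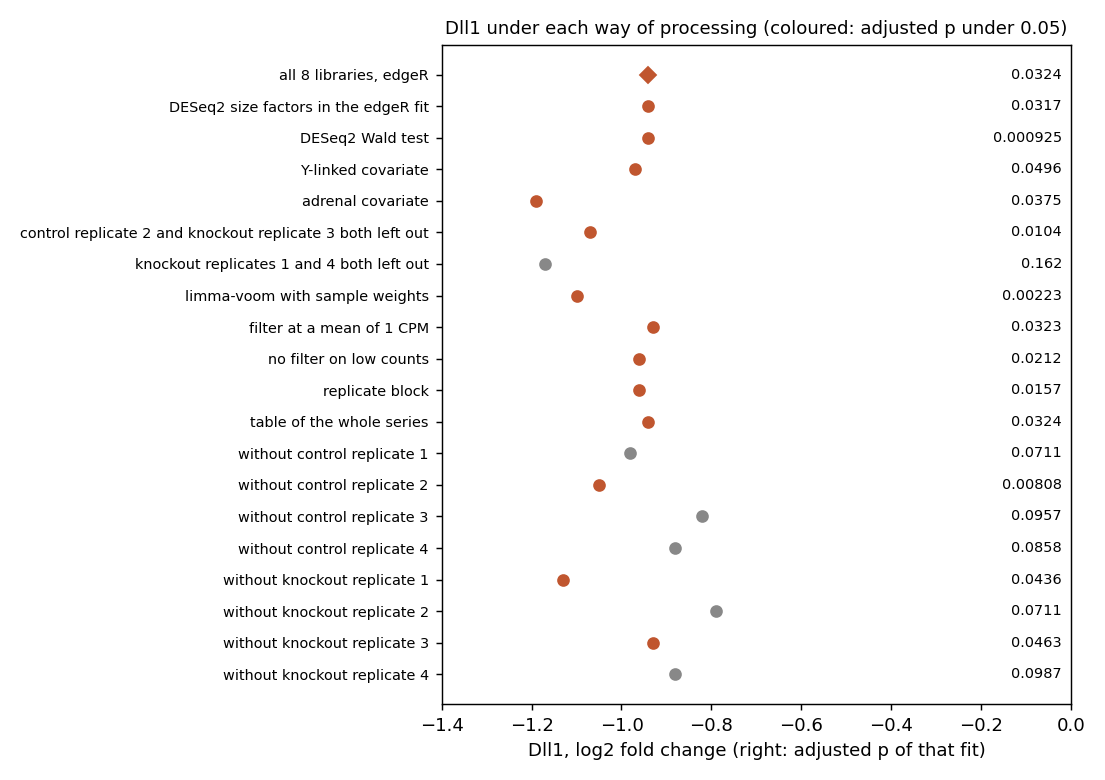
Log2 fold change of Dll1, knockout over control, under the reported fit and each alternative fit, with the adjusted p beside each point. All values lie below 0, from -1.19 to -0.79, and 13 of the 19 alternatives keep an adjusted p under 0.05. The table of the whole series, among those 13, repeats the reported fit on the same counts.

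Jag1 (ENSMUSG00000027276, chromosome 2, 137081456 to 137116644, minus strand) encodes the Jagged ligand whose loss of function is the usual cause of human Alagille syndrome. Its controls read 100.2, 93.0, 114.4 and 116.4 CPM and its knockouts 96.3, 76.8, 102.3 and 80.3 CPM. The groups overlapped, with knockout replicates 2 and 4 below every control and knockout replicates 1 and 3 within the control range. The means were 106.0 ± 11.3 and 88.9 ± 12.3 CPM, and the log2 fold change of -0.25 (SE 0.11, 95% interval -0.51 to 0.00) did not pass the test (adjusted p = 0.144, unadjusted p = 0.0507).

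Per kilobase of transcript, Dll1 stood at 0.307, 0.28, 0.376 and 0.342 of the Jag1 level in control replicates 1 to 4, and at 0.261, 0.157, 0.185 and 0.209 of it in knockout replicates 1 to 4. The mean ratio was 0.326 ± 0.0416 in controls and 0.203 ± 0.0442 in knockouts (SD, n = 4 per group), and the groups did not overlap. The ratio holds the Dll1 values that were already tested, and it is given as a description. Dll1 per Notch1, on the same per-length scale, was 1.87, 1.5, 2.25 and 2.22 in the controls and 1.3, 0.737, 1.0 and 0.95 in the knockouts, so the Dll1 level was above that of Notch1 in all 4 controls and below it in knockout replicates 2 and 4.

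Notch2 (ENSMUSG00000027878, chromosome 3, 98013527 to 98150361, plus strand) was the most abundant receptor of the 3. Control replicates read 95.5, 135.4, 92.3 and 95.9 CPM, and knockout replicates read 117.2, 128.0, 129.1 and 117.9 CPM. Each knockout was above 3 of the controls, and control replicate 2 was above every knockout. The means were 104.8 ± 20.5 and 123.1 ± 6.36 CPM, and the log2 fold change of 0.23 (SE 0.12, 95% interval -0.04 to 0.51) did not pass the test (adjusted p = 0.202). Without control replicate 2 it was 0.38 with an adjusted p of 0.00245, but that fit called 37.4% of all genes tested. Limma-voom with sample weights, which gives libraries that stand apart less weight, gave 0.34 with an adjusted p of 0.00559 and called 44.9% of all genes tested.

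Notch1 (ENSMUSG00000026923, chromosome 2, 26457903 to 26516663, minus strand), a receptor used in many tissues, read 40.2, 42.4, 46.7 and 43.8 CPM in controls and 47.2, 40.0, 45.9 and 43.2 CPM in knockouts. The groups lay on top of each other, with means of 43.3 ± 2.69 and 44.1 ± 3.2 CPM. Its log2 fold change was 0.03 (SE 0.08, adjusted p = 0.823), and the 95% interval of -0.14 to 0.20 bounds a change in either direction. Notch3 (ENSMUSG00000038146, chromosome 17, 32120820 to 32166880, minus strand), the receptor of vascular mural cells, read 37.9, 42.1, 41.7 and 46.5 CPM in controls and 45.5, 41.4, 51.9 and 44.5 CPM in knockouts. Its means were 42.1 ± 3.52 and 45.8 ± 4.42 CPM, the ranges overlapped, and the log2 fold change was 0.12 (SE 0.09, 95% interval -0.08 to 0.33, adjusted p = 0.34). An antisense transcript of Notch3, Gm17276, had 10 to 67 counts per library, and its reads cannot be told apart from those of Notch3 if the counting ignored strand. Notch2 per Notch1, on the per-length scale, was 3.13, 4.21, 2.61 and 2.89 in controls and 3.28, 4.23, 3.71 and 3.61 in knockouts, with control replicate 2 among the knockouts.

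Lfng (ENSMUSG00000029570, chromosome 5, 140607320 to 140615545, plus strand) encodes Lunatic fringe, a glycosyltransferase that lengthens sugars on the Notch extracellular domain and so alters which ligands it answers to. Its values were 34.0, 27.8, 35 and 40.8 CPM in controls and 31.3, 28.3, 34.1 and 30.2 CPM in knockouts. The 4 knockouts fell within the control range, the means were 34.4 ± 5.32 and 31.0 ± 2.41 CPM, and the log2 fold change was -0.15 (SE 0.12, 95% interval -0.41 to 0.11, adjusted p = 0.369).

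Hes1 (ENSMUSG00000022528, chromosome 16, 30064384 to 30067796, plus strand), a transcriptional repressor that answers to Notch and to other signals, read 55.9, 82.8, 57.8 and 61.8 CPM in controls and 87.7, 81.2, 67.8 and 60.0 CPM in knockouts. The groups overlapped, with control replicates 2 and 4 within the knockout range and knockout replicates 2, 3 and 4 within the control range. The means of 64.6 ± 12.4 and 74.2 ± 12.6 CPM gave a log2 fold change of 0.20 (SE 0.15, 95% interval -0.15 to 0.55, adjusted p = 0.375).

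Hey1 (ENSMUSG00000040289, chromosome 3, 8663359 to 8667256, minus strand), another repressor of the same protein class, read 36.5, 27.2, 40.9 and 36.4 CPM in controls and 33.9, 26.9, 27.6 and 32.2 CPM in knockouts. Here control replicate 2 was the only control inside the knockout range. The means were 35.3 ± 5.76 and 30.1 ± 3.41 CPM, with a log2 fold change of -0.23 (SE 0.13, 95% interval -0.52 to 0.07) and an adjusted p of 0.242, which became -0.33 and 0.0264 without control replicate 2 and -0.30 and 0.0326 in limma-voom. Those 2 fits called 37.4% and 44.9% of all genes tested. Heyl (ENSMUSG00000032744, chromosome 4, 123233556 to 123249875, plus strand) read 56.0, 49.0, 53.9 and 61.8 CPM in controls and 56.8, 54.2, 60.9 and 51.3 CPM in knockouts. All 4 knockouts lay within the control range, and the log2 fold change was 0.02 (SE 0.09, 95% interval -0.18 to 0.21, adjusted p = 0.905).

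Hes5 (ENSMUSG00000048001, chromosome 4, 154960923 to 154962371, plus strand), a target known for its close dependence on Notch signalling in nephron precursors and neural tissue, was scarce. It had 18, 11, 10 and 18 counts in controls and 9, 1, 13 and 7 counts in knockouts, or 0.737, 0.51, 0.404 and 0.818 CPM against 0.38, 0.0502, 0.45 and 0.252 CPM. Of the knockouts, replicates 1, 2 and 4 lay below every control and replicate 3 lay within the control range. The totals were 57 and 30 counts, and the log2 fold change of -1.07 (SE 0.49, 95% interval -2.17 to 0.04) did not pass the test (adjusted p = 0.155). At 1 to 18 counts per library, a change of this size was not resolved by this test. A transcript on the opposite strand that overlaps the start of Hes5, Gm20421, had 0 to 4 counts per library. Its reads cannot be told apart from those of Hes5 if the counting ignored strand.

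**Figure D2:**
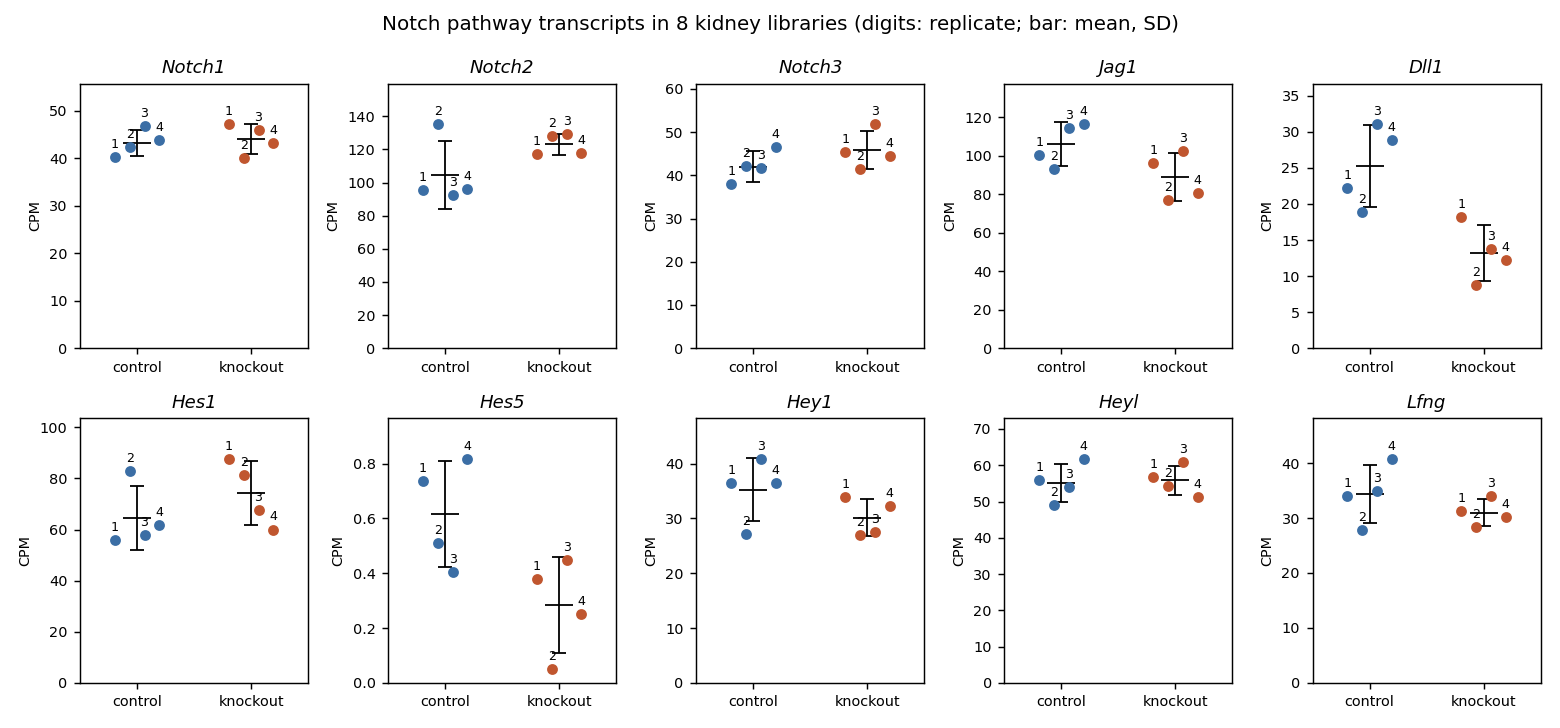
CPM of each of the 10 Notch pathway genes in each of the 8 libraries, with 1 panel per gene and its own axis; each point is 1 library with its replicate number, and the bars are the group mean and SD. The groups are apart for Dll1 alone, where the knockouts read 8.73 to 18.2 CPM and the controls 18.9 to 31.1 CPM; control replicate 2 is the high control of Notch2 and Hes1.

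Of the 10 genes, 1 was called, in the direction of lower in knockout, while 14.9% of all genes tested were called, 8.27% lower and 6.61% higher. With so few genes, that share does not stand apart from the background. None of the 10 was called higher, and at an unadjusted p under 0.05 the same count of 1 was found, against 35.1% of all genes tested. The log2 fold changes split into 5 above 0 and 5 below 0, with a median of -0.07 beside 0.00 for all genes tested. Dll1 was also the only gene of the 10 whose groups did not overlap, where 9.58% of all genes tested had all knockouts below all controls and 9.29% had all knockouts above. Summed over the 10 genes, controls read 479.3 to 533.1 CPM and knockouts 472.0 to 534.4 CPM.

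The count of calls moved with the libraries used. Without control replicate 2, Notch2, Dll1 and Hey1 were called, 3 of 10 beside 37.4% of all genes tested. Limma-voom with sample weights called the same 3 and Jag1, 4 of 10 beside 44.9% of all genes tested. Without knockout replicate 4, none of the 10 was called, but that fit called only 0.819% of all genes tested. Notch1, Notch3, Hes5 and Heyl were called in none of the alternatives that tested them.

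Extremes were not spread evenly over the libraries. Knockout replicate 2 held the lowest of the 8 values for 5 genes, Notch1, Jag1, Dll1, Hes5 and Hey1. Control replicate 4 held the highest value for 4 genes, Jag1, Hes5, Heyl and Lfng. These 2 libraries also lay at the ends of the first principal component (68.4 and -78.7) and of the proximal tubule markers, which summed to 78.5 CPM in knockout replicate 2 and to 1992.3 CPM in control replicate 4.

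Compared per length, in counts per kilobase of the deposited gene length per 1000000 counts (RPKM), the order of levels in controls began with Hes1 at 31.7 ± 6.09 and Jag1 at 18.2 ± 1.94 (SD, n = 4), whose ranges did not overlap. Lfng followed at 13.7 ± 2.13 RPKM, then Hey1 at 10.8 ± 1.76, Heyl at 10.8 ± 1.04 and Notch2 at 9.72 ± 1.9 RPKM, and from Jag1 down to Notch2 each gene's range overlapped that of the next. Dll1 at 5.99 ± 1.35 RPKM lay below Notch2 without overlap and overlapped Notch3 at 5.23 ± 0.438 RPKM. Notch1 at 3.04 ± 0.189 RPKM and Hes5 at 0.453 ± 0.142 RPKM closed the order, each apart from the gene above it. In knockouts Hes1 (36.4 ± 6.17 RPKM), Jag1 (15.3 ± 2.11 RPKM) and Lfng (12.4 ± 0.962 RPKM) kept the top of the order and Notch1 and Hes5 the end, while Dll1 (3.13 ± 0.931 RPKM) came after Notch3 (5.7 ± 0.55 RPKM) and Notch2 (11.4 ± 0.589 RPKM) came before Heyl (10.9 ± 0.797 RPKM) and Hey1 (9.23 ± 1.04 RPKM). From Jag1 down to Hey1 each knockout range overlapped that of the next gene. The knockout ranges of Dll1 and Notch1 also overlapped, while those of Notch3 and Dll1 did not.

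**Figure D3:**
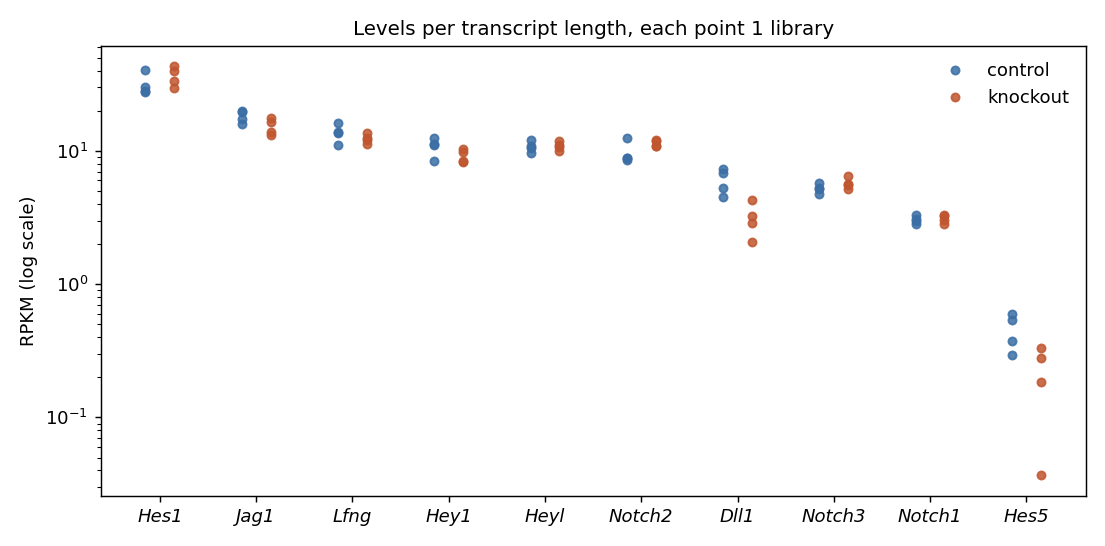
Levels per transcript length (RPKM, log axis) of the 10 genes, ordered by the control mean, with each point 1 library. Hes1 is at the top, at 27.5 to 40.7 RPKM in controls, and Hes5 at the bottom, at 0.296 to 0.6 RPKM in controls and down to 0.0368 RPKM in knockout replicate 2.

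A further 50 genes of the pathway were listed by role, and 47 were tested; Dll3, Hes2 and Hes3 had too few counts. Among the 47, 2 were called lower and 3 higher, 5 in all, against the same background of 14.9% of all genes tested. Of all genes tested, 8.27% were called lower and 6.61% higher, and 49.5% had a fold change below 0. The lists by role below are read beside these shares. Their median log2 fold change was 0.10, beside 0.00 for all genes tested, and 24 of the 47 had an unadjusted p under 0.05, beside 35.1% of all genes tested. The groups did not overlap for 2 genes lower and 7 genes higher in knockout, where all genes tested gave 9.58% lower and 9.29% higher. With adrenal cortex transcripts as a covariate 0 of the 47 were called, beside 6.14% of all genes tested. With Y-linked transcripts as a covariate 2 were, Maml3 and Dtx4, beside 11.2% of all genes tested. Leaving out control replicate 2 gave 24 calls, beside 37.4% of all genes tested, and leaving out knockout replicate 3 gave 10, beside 17%. Leaving out any of control replicates 1, 3 and 4 or knockout replicates 1, 2 and 4 gave 0, in fits that called 0.819% to 3.65% of all genes tested. Across these fits the count moved with the share called over all genes. DESeq2 called 13 of the 47, beside 13.8% of all 32504 genes with a count.

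Of the other receptor and ligands, 6 of 7 were tested, and Dll4 fell, with none called higher; their median log2 fold change was -0.44, with 4 below 0 and 2 above. Dll4, the Delta-like ligand of arterial endothelium, read 14.5, 12.7, 14.2 and 19.8 CPM in controls and 9.42, 5.87, 11.3 and 10 CPM in knockouts. Its groups did not overlap, and its mean fell from 15.3 ± 3.09 to 9.15 ± 2.32 CPM, with a fitted log2 fold change of -0.74 ± 0.21 (SE) and an adjusted p of 0.0491. Jag2, a Jagged ligand, averaged 15.1 ± 0.935 and 10.7 ± 3.22 CPM (log2 fold change -0.49, adjusted p = 0.108), with knockout replicate 3 at the level of the controls. Notch4, the receptor of endothelial cells, averaged 26.2 ± 4.25 and 20 ± 2.73 CPM (log2 fold change -0.39, adjusted p = 0.0868). The fold changes above 0, named here after their values were seen, belonged to Dlk1 and Dner, noncanonical ligands. Dlk1, the most abundant gene of the list by its mean over the 8 libraries, read 64.1, 160.2, 42.7 and 23.1 CPM in controls and 107.9, 186.9, 130.9 and 171.8 CPM in knockouts (log2 fold change 1.04, SE 0.50, adjusted p = 0.172), with control replicate 2 inside the knockout range. Without that library it was 1.78 with an adjusted p of 0.00462, but that fit called 37.4% of all genes tested. Dner averaged 1.74 ± 0.149 and 2.56 ± 0.848 CPM (log2 fold change 0.56, adjusted p = 0.15). The summed level of the list was 89.3 to 210.5 CPM in controls and 154.3 to 221.1 CPM in knockouts.

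Of 9 genes for the enzymes that cut the receptor, Psenen, a subunit of gamma-secretase, was called. It read 66.0, 61.3, 65.7 and 61.2 CPM in controls and 50.8, 49.4, 57.8 and 55.5 CPM in knockouts, a fall from 63.6 ± 2.66 to 53.4 ± 3.94 CPM without overlap, fitted at -0.25 ± 0.07 on the log2 scale (SE; adjusted p = 0.0419). The list had 8 fold changes below 0 and a median of -0.25, beside 49.5% below 0 and a median of 0.00 for all genes tested. None of the 4 other sugar-adding enzymes (median -0.07) or of the 4 ubiquitin ligases that act on the ligands (median 0.09) was called.

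Of 12 genes of the nuclear complex, which holds RBPJ, its coactivators and its corepressors, 2 rose and none fell. Of all genes tested, 6.61% were called higher and 8.27% lower. Maml3, a Mastermind coactivator, read 37.2, 38.8, 34.2 and 33.7 CPM in controls and 45.6, 43.4, 43.7 and 45.5 CPM in knockouts, with no overlap, and its log2 fold change was 0.31 (SE 0.07, adjusted p = 0.0223). Maml2, of the same family, rose from 24.8 ± 7.47 to 38.8 ± 3.97 CPM (0.65 ± 0.18 on the log2 scale, SE; adjusted p = 0.0454), with control replicate 2 at 36.0 CPM inside the knockout range. Rbpj averaged 64.2 ± 5.56 and 71.3 ± 3.98 CPM (log2 fold change 0.15, adjusted p = 0.194). Fold changes were above 0 for 11 of the 12, while 49.5% of all genes tested were below 0. The median of the 12 was 0.25, and the summed level was 655.0 to 768.0 CPM in controls and 788.2 to 827.7 CPM in knockouts.

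Among 8 modulators of the receptor, Dtx4, a Deltex ubiquitin ligase, rose from 33.7 ± 5.24 to 45.2 ± 1.76 CPM (0.43 ± 0.10 on the log2 scale, SE; adjusted p = 0.0305), and the other 7 were not called. Among 4 tested of 6 other target genes none was called. Nrarp, a feedback inhibitor induced by Notch, had the smallest adjusted p of the 4. It read 12.7, 6.86, 14.3 and 15.8 CPM in controls and 7.69, 4.97, 8.51 and 5.36 CPM in knockouts, with a log2 fold change of -0.90 (SE 0.28) and an adjusted p of 0.0567. Control replicate 2 was the only Nrarp control within the knockout range. Hey2, a repressor of the Hey family, averaged 5.38 ± 0.662 and 4.06 ± 1.28 CPM (log2 fold change -0.40, adjusted p = 0.24). Hes7, a repressor of the segmentation clock that is named here after its values were seen, lay in the other direction. It read 0.901, 1.34, 1.41 and 0.773 CPM in controls and 1.82, 1.81, 1.87 and 1.83 CPM in knockouts without overlap, with a log2 fold change of 0.72 (SE 0.24) and an adjusted p of 0.0697.

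**Figure D4:**
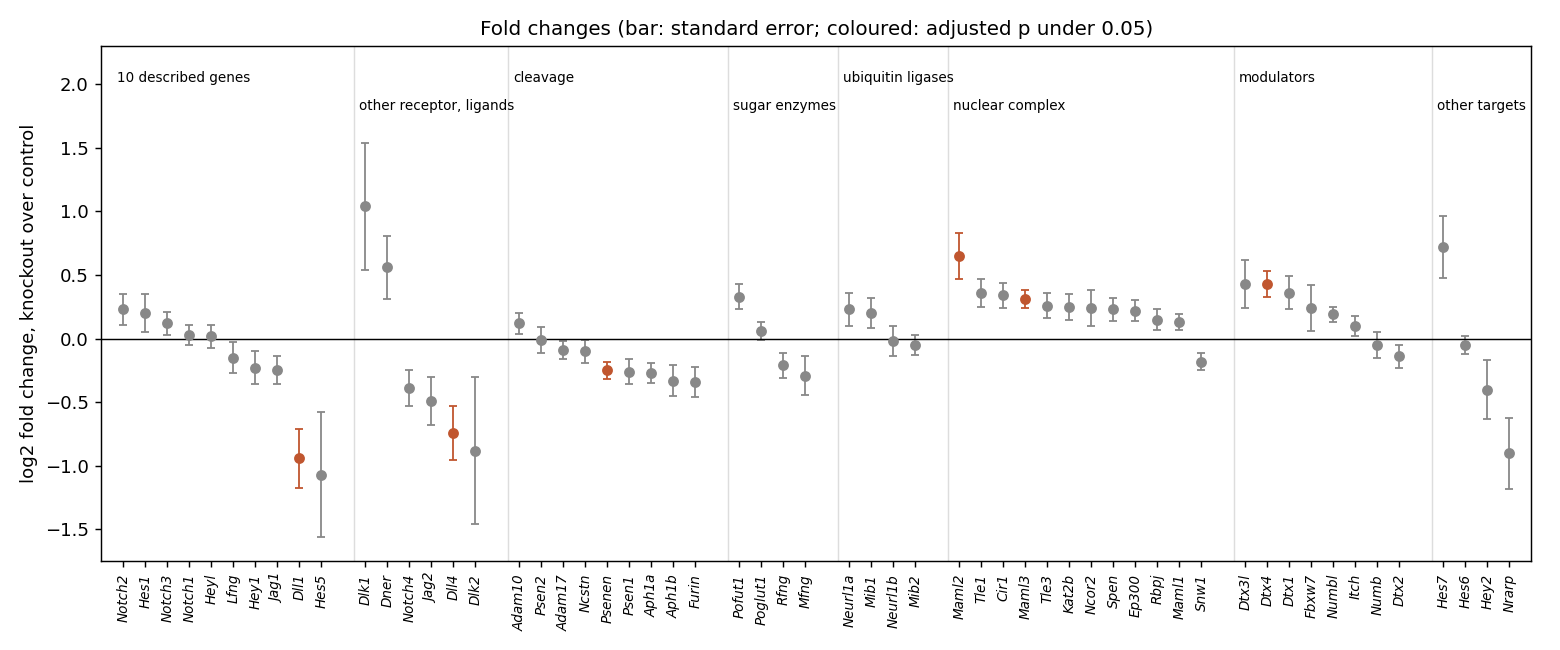
Log2 fold change, knockout over control, of the 10 genes and of the 47 other tested pathway genes by role; bars are standard errors and colour marks an adjusted p under 0.05. Dll1, Dll4 and Psenen are the called genes below 0, and Maml2, Maml3 and Dtx4 those above it.

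Marker lists of kidney cell types were read in the same libraries. Fell and rose count called genes here. Each list is led by its 2 most abundant genes, whether or not they were called. Of all genes tested, 8.27% were called lower and 6.61% higher, and 49.5% had a fold change below 0. All 10 proximal tubule genes fell (median log2 fold change -3.02), and their summed level was 488.8 to 1992.3 CPM in controls and 78.5 to 346.5 CPM in knockouts, led by Aqp1 and Lrp2. Of 6 thick ascending limb genes 5 fell (median -2.43), with sums of 236.7 to 1108.6 and 17.8 to 319.9 CPM, led by Slc12a1 and Umod. Slc12a1 was the gene not called (adjusted p = 0.131). None of 8 tested collecting duct genes was called (median -1.03), with sums of 336.6 to 1060.7 and 87.2 to 769.4 CPM, led by Aqp2 and Aqp3. These kidney segments were detected in all 8 libraries, as the label of the tissue states.

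Of 14 markers of nascent nephrons, in which Jag1, Dll1 and Notch2 are known to act, 4 fell and none rose, with a median log2 fold change of -0.58. Their summed level was 938.5 to 1205.2 CPM in controls and 716.0 to 881.1 CPM in knockouts, without overlap, and their most abundant members were Ccnd1 and Wnt4. Ccnd1 was called lower, and Wnt4 was not called (0.03 on the log2 scale). The gap between the sums includes Hnf4a, which was called lower and is named here after its values were seen. Hnf4a read 109.8 CPM in control replicate 1, the lowest control sum, and 35.2 CPM in knockout replicate 3, the highest knockout sum. Fold changes were below 0 for 11 of the 14 and above 0 for 3. Of 8 nephron progenitor genes 1 rose and 2 fell, and the sums overlapped at 539.0 to 846.1 and 661.0 to 919.8 CPM, led by Spock2 and Six2. Of 8 podocyte genes 2 fell (median -0.98), with sums of 415.1 to 635.4 and 306.6 to 382.0 CPM, led by Wt1 and Podxl. Podxl was called lower, and Wt1 was not called (0.04 on the log2 scale). The part of these markers in the Dll1 result was not tested. Without knockout replicate 4 the counts called lower were 1 of the 10 proximal tubule and 0 of the 14 nascent nephron genes, and without control replicate 2 they were 10 and 8. In either direction, these fits called 0.819% and 37.4% of all genes tested.

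All 10 endothelial genes had fold changes below 0 and 1 fell (median -0.44), with sums of 670.8 to 1034.9 CPM in controls and 474.9 to 796.1 CPM in knockouts, led by Pecam1 and Egfl7. Neither Pecam1 nor Egfl7 was called. Of 5 arterial genes 1 fell, with sums of 204.0 to 262.5 and 180.7 to 258.5 CPM, led by Efnb2 and Unc5b, neither of them called. Of 10 mural cell genes none was called (median -0.21), with sums of 967.4 to 1483.9 and 811.4 to 1099.3 CPM, led by Acta2 and Rgs5. Their part in the Dll4 result, and in the levels of Notch3 and Heyl, was not tested. Of 8 stromal genes 3 rose (median 0.60), with sums of 2156.7 to 2944.1 and 2486.9 to 4163.6 CPM. They were led by Col3a1 and Col1a1, neither of them called. Of 6 tested leukocyte genes 2 rose (median 0.16), with sums of 92.9 to 110.4 and 101.3 to 133.5 CPM. The leukocyte list was led by Ptprc, which was called higher, and Csf1r, which was not called (-0.40 on the log2 scale).

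Adrenal cortex genes, led by Cyp21a1 and Star, gave no call among 6 tested (median 3.91), and of 6 tested chromaffin and neural genes, led by Chgb and Chga, 1 rose (median 2.74), with the highest sums in knockout replicates 1 (226.8 CPM) and 4 (176.4 CPM) and 12.5 to 25.4 CPM elsewhere. Dll1 read 18.2 CPM in knockout replicate 1, the library with most adrenal transcripts, and 8.73 and 13.7 CPM in knockout replicates 2 and 3, where adrenal cortex genes summed to 13.7 and 16.1 CPM; in knockout replicate 4 it read 12.2 CPM. None of 8 cell cycle genes was called (median -0.05), with sums of 1170.7 to 1297.0 CPM in controls and 1133.8 to 1246.8 CPM in knockouts, led by Mki67 and Top2a.

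Genes whose pattern over the 8 libraries was most like that of a ligand, a receptor and a target were found by the mean absolute difference of centred log2 CPM. The search covered 14228 tested genes that averaged 1 CPM or more, after predicted genes, pseudogenes, Xist and Y-linked genes were left out. Nearest to Jag1, whose own range was 0.599 on the log2 scale, were Bend7 (0.034), Fzd6 (0.0357) and Ascc3 (0.0364). For Notch2, with a range of 0.552, they were Zfp160 (0.0447), Ssh1 (0.0489) and Fam102b (0.0493). For Hes5, with a range of 2.76, they were Unc5cl (0.204), Igsf11 (0.233) and Bicdl2 (0.25), at a looser likeness. A gene that varies little is near many others by this measure, and all patterns were read in the same 8 libraries, which differ in depth and in tissue markers.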

How the data were processed

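Per the labels' protocols, total RNA from frozen kidney was extracted with an RNeasy Plus kit and made into NEBNext Ultra libraries. Per the submitters' processing notes, the tools were Trimmomatic 0.36, STAR 2.5.2b, featureCounts of Subread 1.5.2 and DESeq2, with build GRCm38; whether strand was used is not given in the sources used here. The authors deposited, per the file headers, raw counts for each gene beside its exon coordinates and length. Of 49315 gene IDs 48970 had a symbol in GENCODE M21. Library tables and the series table differed in 0 cells. No pair of libraries was alike within sampling noise: over the 28 pairs, chi-square per degree of freedom ran from 11.9 to 103.

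Counts were scaled by TMM, filtered with filterByExpr (18485 genes) and tested in edgeR 4.0.16 (quasi-likelihood, R 4.3.3), 4 controls against 4 knockouts, without covariates. P values were adjusted by Benjamini-Hochberg over all genes tested. Standard errors come from the fold change and F statistic. CPM uses TMM library sizes, and 1 count is 0.0346 to 0.0502 CPM on that scale, which limits low genes. RPKM uses the deposited length. The fit was tested on simulated data. Alternatives were DESeq2 1.42.0 and its size factors, limma-voom (limma 3.58.1), other filters, 2 covariates, a replicate block and left-out libraries.

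The genes and lists were chosen with earlier results of these data known. Named are all 10 genes, each called gene of the other pathway lists together with Notch4, Jag2, Dll4, Rbpj, Nrarp and Hey2, the 2 most abundant members of each marker list, 3 pattern neighbours each of Jag1, Notch2 and Hes5 (predicted genes, pseudogenes, Xist and Y-linked genes left out), and Kdm1a. Dlk1, Dner, Hes7 and Hnf4a were added after their values were seen. Same-numbered libraries were not treated as pairs. Promoter windows come from RefSeq, build GRCm38.p6. Hes1, Hey1 and Heyl had no entry.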

Additional observations from a re-analysis of the deposited data

Results flagged for a closer look

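In control replicate 2, Notch2 read 135.4 CPM while the other controls read 92.3 to 95.9 CPM. The same library read 36.0 CPM for Maml2, against 20.7 to 21.7 CPM in the other controls, and 41.5 CPM for Dtx4, against 30.0 to 31.8 CPM. Dner read 1.52 CPM in control replicate 1, against 1.81 to 1.82 CPM in the other controls. This gap rests on few counts, 37 in control replicate 1 against 39, 45 and 40 in control replicates 2 to 4. In each case the gap to the nearest control exceeded the 95% limit of Dixon's test for 4 values. Of 48 groups of 4 libraries tested in this way 4 stood out, and chance gives about 1 in 20. The Notch2, Maml2 and Dtx4 values came from the control library that lay beside knockout replicate 3 on the first principal component. That library was also the only control with a high Xist level (964.5 CPM) and a low Ddx3y level (0.417 CPM).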

How the results depend on the processing

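Of the 10 genes, 1 was called in the reported fit and with DESeq2, its size factors, both filters, both covariates, the table of the whole series and the replicate block. The count was 4 with limma-voom, 6 without control replicate 2 and knockout replicate 3, 0 without knockout replicates 1 and 4, and 0 to 3 with single libraries left out. Of the 47 other pathway genes, 5 in the reported fit, it was 13 with DESeq2, 28 with limma-voom, 2 with the Y-linked and 0 with the adrenal covariate, 23 and 0 without those pairs of libraries, and 0 to 24 with single libraries left out. Over all genes tested, 2751 in the reported fit (1529 lower, 1222 higher), it was 4494 with DESeq2, 8302 with limma-voom, 1135 with the adrenal covariate, 7903 and 1 without those pairs, and 153 (43 lower, 110 higher, without knockout replicate 4) to 7084 (3598 lower, 3486 higher, without control replicate 2) with single libraries left out; without knockout replicate 1 it was 567 (211 lower, 356 higher). As shares of all genes tested, the reported fit called 14.9%, limma-voom 44.9%, the Y-linked covariate 11.2% and the adrenal covariate 6.14%. Without those pairs of libraries the shares were 42.7% and 0.00522%, and with single libraries left out 0.819% to 37.4%. For DESeq2 the share was 13.8%, taken over all 32504 genes with a count. Kdm1a was -0.28 (adjusted p = 0.191) without knockout replicates 1 and 4, and -0.29 to -0.24 with single libraries left out. Groups that did not overlap were found for 1 to 3 of the 10 genes with single libraries left out, alternatives chosen after seeing the data, while the share over all genes tested moved from 18.9% to between 20.6% and 45.2%; 3 and 45.2% were both found without control replicate 2. The sign of Notch1 turned to -0.02 with the adrenal covariate, to -0.01 with limma-voom and without either pair of libraries, and ran from -0.01 to 0.07 with single libraries left out. That of Heyl turned to -0.09 without control replicate 2 and knockout replicate 3, to -0.03 with limma-voom and to -0.00218 with no filter, and ran from -0.04 to 0.07. Apart from fits with fewer libraries, the cause of these shifts was not tested. Hes5 was left untested by a filter at a mean of 1 CPM and without control replicate 2 and knockout replicate 3.

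Replicate numbers were shared between the groups, but the deviations of same-numbered libraries correlated at -0.108, 0.329, 0.228 and -0.059, so the numbers were not taken as pairs. With the replicate block, Dll1 was -0.96 (adjusted p = 0.0157), 8 of the 47 other pathway genes were called, without Psenen (-0.25, adjusted p = 0.0566), and 3229 of all genes.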
